A study of Homo sapiens with 6 samples.

Results

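The genes described here are those of membrane fusion and vesicle sorting: syntaxins, VAMPs, syntaxin-binding proteins, synaptotagmin-like (SYTL) proteins, vacuolar protein sorting (VPS) proteins and sorting nexins (SNX). They were chosen by symbol, from the array platform's annotation, with patterns for RAB, VAMP, STX, STXBP, SNAP, VPS, SNX and SYTL followed by a number. The patterns found 96 of 14812 named genes, 89 of them protein-coding. By family these were 30 VPS genes, 26 sorting nexins, 14 syntaxins, 7 VAMPs, 6 syntaxin-binding proteins, 5 SYTL genes and 1 Rab GTPase, RAB6D. The other 7 symbols are antisense or divergent transcripts, pseudogenes or a read-through transcript. Rab GTPases other than RAB6D, and the SNAP genes, were not analysed here, so the set is one of SNAREs and sorting proteins rather than of Rabs. VPS72 bears the VPS name but is best known as a subunit of chromatin remodelling complexes.

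Expression was measured on Affymetrix arrays in LS180, an established human colorectal adenocarcinoma line. The siRNAs targeted CTNNB1 (the gene of beta-catenin, through which Wnt signals reach the nucleus), MYC (a growth-promoting transcription factor) or MYU, a long non-coding RNA listed as VPS9D1-AS1. Each knockdown has 1 array and 1 control siRNA array named for it, giving 3 pairs and 6 arrays. The controls for CTNNB1 and for MYC have one number in their titles and may be one sample, so results of these pairs are given side by side and not as independent of each other. The labels say nothing of separate cultures, times or siRNA doses, and 1 tag of the CTNNB1 array names CTNNB2 instead. Each value below is a difference on the log2 scale between a knockdown array and the control of its pair, with base 2 assumed. Positive values mean more transcript in the knockdown array. The deposited values are centred within each pair, so expression levels, and with them the colonic markers that would check the line, cannot be read. With 1 array a condition no difference has a replicate check or a p-value, and the number of arrays limits the precision.

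SNAREs are proteins on vesicles and on their target membranes that zip together and drive the membranes to fuse. Syntaxins sit mostly on targets and VAMPs mostly on vesicles, while syntaxin-binding proteins of the Sec1/Munc18 kind control when a syntaxin may enter a complex. VPS proteins and sorting nexins choose cargo: retromer and its partners return receptors from endosomes, ESCRT complexes send ubiquitinated receptors to lysosomes, and HOPS tethers late endosomes to lysosomes. In intestinal epithelium the same machinery delivers brush border proteins to the apical surface and releases mucin granules, and retromer with SNX3 recycles the carrier of Wnt ligands.

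The targeted transcripts were examined first. MYC stood at -1.18 with its own siRNA, at -2.38 with CTNNB1 siRNA and at 0.04 with MYU siRNA. VPS9D1-AS1 stood at -0.50 with its own siRNA, at -0.53 with CTNNB1 siRNA and at -0.24 with MYC siRNA. CTNNB1 was not analysed here, so that knockdown has no direct check. As a yardstick of noise, 101 hair keratin-associated and late cornified envelope genes, little used outside hair and skin, had a standard deviation of 0.13 with CTNNB1 siRNA, 0.10 with MYC siRNA and 0.11 with MYU siRNA. The largest absolute value among them was 0.65, 0.33 and 0.36. Such genes are not usually expressed in colon, and the yardstick says nothing of noise at high expression.

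Across the set, more genes were higher than lower in the CTNNB1 and MYC pairs. With CTNNB1 siRNA 67 of 96 genes lay above 0, against 48.9% of all named genes, and the median was 0.10 against 0.00 for all genes. A 2-fold higher value was found for 6 of the 96 (6.25%), against 2.8% of all named genes, and a 2-fold lower value for 1 (1.04%), against 4.14%. At 1.5-fold 18 were higher (18.8%), against 6.44%, and 2 were lower (2.08%), against 9.8%. The balance among all genes was thus turned to lower values in this pair, and among these genes to higher ones. The 1.5-fold threshold, 0.585, lies below the largest absolute value of the hair and skin genes in this pair, 0.65. Of the genes counted as higher, VPS18, VPS13D, SNX33, VPS39 and VAMP7 lay between the threshold and that value.

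With MYC siRNA 65 of 96 genes lay above 0, against 7104 of all 14812 named genes (48%), with a median of 0.09 against 0.00. Here 2 genes were 2-fold higher (2.08%), against 0.412%, and 0 were 2-fold lower, against 0.446%. At 1.5-fold 8 were higher (8.33%), against 2.15%, and 0 were lower, against 3.63%. The lowest gene of the set in this pair, SNX2, stood at -0.42.

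With MYU siRNA few genes of the set were far from 0, and moderate negative values were more frequent in it than among all genes. Of the 96, 43 were above 0, against 48.7% of all named genes, and the median was -0.02 against 0.00. None was 2-fold apart, where 0.0608% of all named genes were higher and 0.0945% lower. At 1.5-fold 2 were higher, against 0.668%, and 1 was lower, against 1.21%, which are counts too small to set against a share. Among moderate values, 19.8% of the set lay at or below -0.2 against 11.4% of all named genes, and 7.29% at or below -0.4 against 3.42%. The lower quartile was -0.14 against -0.08, and for protein-coding genes alone -0.15 against -0.09. Among the 89 protein-coding members, 65, 62 and 42 lay above 0 with CTNNB1, MYC and MYU siRNA, against 48.2%, 47.7% and 48.5% of 11910 protein-coding genes. The same members were 2-fold apart as above, where 3.37% of protein-coding genes were higher and 4.94% lower with CTNNB1 siRNA, 0.47% and 0.546% with MYC siRNA, and 0.0504% and 0.109% with MYU siRNA. This background also gave shares at 1.5-fold of 7.6% higher and 11.7% lower with CTNNB1 siRNA, 2.46% and 4.39% with MYC siRNA, and 0.647% and 1.41% with MYU siRNA.

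**Figure D1:**
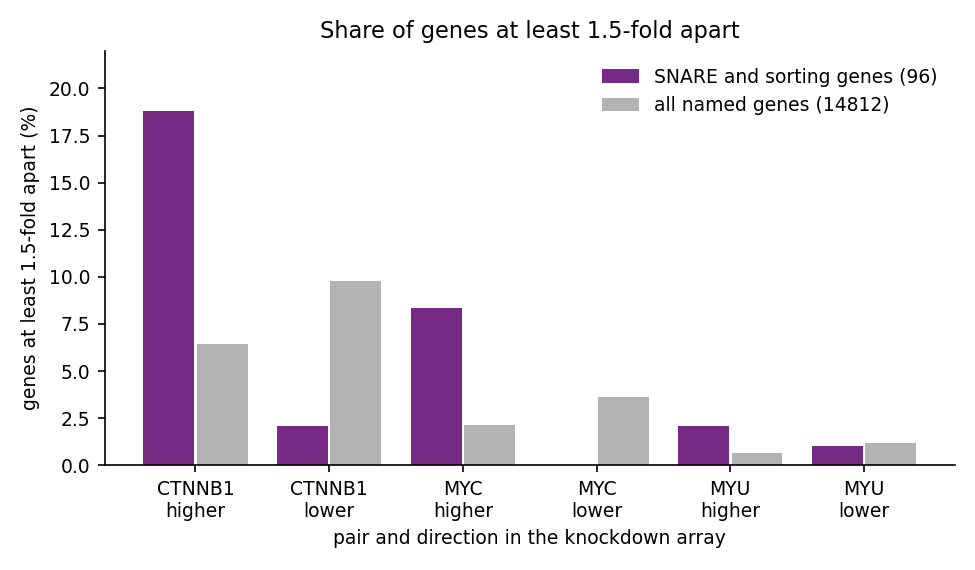
Percent of genes at least 1.5-fold higher or lower in the knockdown array, for the 96 SNARE and sorting genes (purple bars) and all 14812 named genes (grey bars), in each of the 3 pairs. In the CTNNB1 pair 18.8% of the set was higher against 6.44% of all genes, in the MYC pair 8.33% against 2.15%, and no gene of the set was 1.5-fold lower in the MYC pair.

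**Figure D2:**
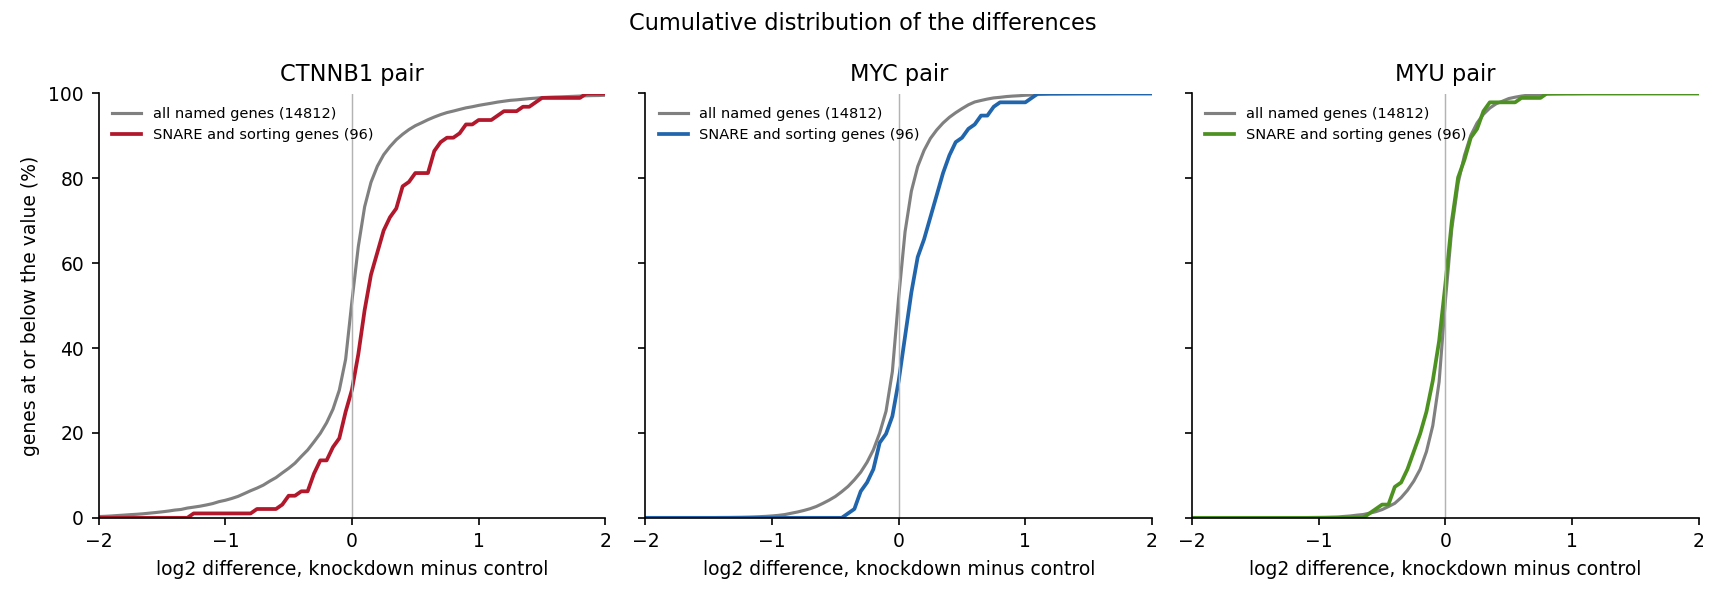
Cumulative percent of genes (vertical axis) at or below a log2 difference (horizontal axis), for the 96 SNARE and sorting genes (coloured) and all 14812 named genes (grey), 1 panel a pair. The coloured curve lies to the right of the grey one over most of its course in the CTNNB1 and MYC panels, with medians of 0.10 and 0.09, and in the MYU panel, with a median of -0.02, it lies to the left below 0 (32.3% of the set at or below -0.1 against 21.7% of all genes) and close to the grey curve above 0.

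The promoters of the genes at both ends of the set are shown because they let the leading members be compared at their start sites. Each of the first 5 is the 250 bases before the start given by RefSeq for GRCh38.p14, on the gene's own strand, 5′ to 3′. VAMP8 (chr2:85577336-85577585, plus strand), STX19 (chr3:94028598-94028847, minus strand) and STX12 (chr1:27772969-27773218, plus strand) were high in the CTNNB1 and MYC pairs. SNX5 (chr20:17968795-17969044, minus strand) was the lowest gene of the set in the CTNNB1 pair, and STX2 (chr12:130839251-130839500, minus strand) was low in the CTNNB1 and MYU pairs. Capitals mark CACGTG, the E-box that MYC and its partners can bind.
VAMP8: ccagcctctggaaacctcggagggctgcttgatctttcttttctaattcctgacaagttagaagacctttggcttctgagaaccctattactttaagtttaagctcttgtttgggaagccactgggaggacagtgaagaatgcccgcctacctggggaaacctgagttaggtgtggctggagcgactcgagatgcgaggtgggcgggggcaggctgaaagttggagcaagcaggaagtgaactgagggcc
STX19: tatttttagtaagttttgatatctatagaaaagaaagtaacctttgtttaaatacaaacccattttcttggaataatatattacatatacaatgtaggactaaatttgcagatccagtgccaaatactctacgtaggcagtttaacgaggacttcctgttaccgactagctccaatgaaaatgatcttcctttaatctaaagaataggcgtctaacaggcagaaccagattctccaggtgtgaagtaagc
STX12: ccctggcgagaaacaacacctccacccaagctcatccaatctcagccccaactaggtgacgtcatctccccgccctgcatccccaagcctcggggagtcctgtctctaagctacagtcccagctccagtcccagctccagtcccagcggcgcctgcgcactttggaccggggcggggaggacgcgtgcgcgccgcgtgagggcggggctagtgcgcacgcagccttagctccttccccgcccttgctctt
SNX5: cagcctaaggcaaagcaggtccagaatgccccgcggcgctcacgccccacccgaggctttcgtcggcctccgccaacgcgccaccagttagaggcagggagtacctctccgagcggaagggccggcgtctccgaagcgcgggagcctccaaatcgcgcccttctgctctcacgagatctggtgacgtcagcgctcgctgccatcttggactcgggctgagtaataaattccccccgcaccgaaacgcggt
STX2: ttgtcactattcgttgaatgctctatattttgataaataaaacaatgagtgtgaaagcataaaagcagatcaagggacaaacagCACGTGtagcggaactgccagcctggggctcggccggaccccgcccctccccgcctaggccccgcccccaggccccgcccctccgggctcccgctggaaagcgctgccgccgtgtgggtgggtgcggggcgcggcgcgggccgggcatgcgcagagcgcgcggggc

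The windows differ in base composition. The STX19 window holds 34.4% G and C with 4 CG pairs and the VAMP8 window 52.8% with 6. The windows of STX12, SNX5 and STX2 hold 66.4%, 65.2% and 65.2%, with 19, 28 and 24 CG pairs. These 5 genes were picked by their values, and base composition was not compared with that of all genes. Whether it goes with the differences was not tested.

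The motifs below were searched on both strands of the 250 bases: CACGTG, the longer GTCACGTG of lysosomal genes, which contains it, and CTTTGAA or CTTTGAT, which TCF/LEF factors can bind. Windows were found by gene identifier for 73 of the 96 genes. CACGTG was found in 10 of these (13.7%), against 9.88% of the 10736 named genes with a window and 6.34% of all 35116 windows in the table. GTCACGTG was found in 5 (6.85%), against 3.94% of the named genes and 2.16% of all windows. The TCF/LEF words were found in 5 (6.85%), against 6.56% and 5.94%. A gene was counted if any of its windows held the motif. Genes with several starts have more windows and so more chances of a match, so shares of genes and of windows are not like measures. For protein-coding genes CACGTG was found in 14.5% of members with a window, against 10.1% of all.

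The E-boxes of 3 further genes are shown in short form, with the motif in capitals. STXBP2 (chr19:7637064-7637091, plus strand) holds CACGTG 35 bases before a start, VPS36 (chr13:52450303-52450330, minus strand) 75 bases before, and STX4 (chr16:31033283-31033312, plus strand) GTCACGTG 197 bases before. They were picked because each gene is among those at least 1.5-fold higher in a pair.
STXBP2: ggggcggggtcCACGTGggtgacgcgcg
VPS36: ccggtcggtagCACGTGgcgtggggcgc
STX4: ggaccgggctgGTCACGTGacgcggtgggg
Of the 8 genes 1.5-fold higher with MYC siRNA, all with a window, 1 held CACGTG, VPS36. Of the 18 genes 1.5-fold higher with CTNNB1 siRNA 14 had a window, and 2 held a TCF/LEF word, STX7 and SNX33. A match describes letters and was not tested as a binding site.

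Among SNAREs, VAMP8 was the gene that stood high in every pair. VAMP8, or endobrevin, is the vesicle SNARE of late endosomes and of regulated secretory granules, including those that carry mucin. Its centred value was -0.75 in the CTNNB1 control array and 0.75 in the CTNNB1 siRNA array. The corresponding values were -0.54 and 0.54 in the MYC pair and -0.38 and 0.38 in the MYU pair. The knockdown array was the higher one in 3 of 3 pairs, by 2.81-fold (1.49), 2.12-fold (1.08) and 1.70-fold (0.77). These differences exceeded those of 99.0%, 99.7% and 99.8% of all named genes, and VAMP8 was the highest gene of the set with MYC and with MYU siRNA.

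The other VAMPs were less far apart. VAMP7, which serves lysosome exocytosis and apical delivery, stood at 0.65 with CTNNB1 siRNA, 0.59 with MYC siRNA and -0.40 with MYU siRNA. Its 2 probe sets gave 0.67 and 0.62, 0.59 and 0.59, and -0.47 and -0.34, so they point the same way in each pair. VAMP3, of recycling endosomes, had 0.47, 0.09 and 0.03, and VAMP2, the synaptobrevin of regulated exocytosis, 0.17, 0.52 and -0.02. VAMP4, of the trans-Golgi network, reached -0.39 with MYU siRNA. All 7 VAMPs lay above 0 with CTNNB1 siRNA and 6 of 7 with MYC siRNA, with medians of 0.29 and 0.32. With MYU siRNA 3 of 7 lay above 0. Of all named genes 48.9%, 48% and 48.7% lay above 0 in these pairs. The counts of small groups, here and below, describe those genes and were not tested against these shares.

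Syntaxins of the plasma membrane ranged from -0.80 to 1.82 with CTNNB1 siRNA. STX19, a syntaxin of epithelia that lacks a transmembrane segment, was the highest gene of the set with CTNNB1 siRNA. Its values were -0.91 in the control and 0.91 in the CTNNB1 siRNA array, -0.52 and 0.52 in the MYC pair, and -0.04 and 0.04 in the MYU pair. The knockdown arrays were higher by 3.53-fold (1.82) and 2.05-fold (1.04), while the difference of 0.09 in the MYU pair was within the spread of the hair and skin genes. STX3, the syntaxin of the apical brush border, had 0.05, 0.32 and -0.16. STX4, its counterpart at the basolateral membrane, had 0.39 and 0.09 and was 1.51-fold higher with MYU siRNA (0.60).

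STX2 went the other way. This plasma membrane syntaxin, also needed for the last step of cell division, stood at 0.40 in the control and -0.40 in the CTNNB1 siRNA array, or 1.74-fold lower (-0.80). In the MYU pair the values were 0.32 and -0.32 (-0.63), the lowest of the set, and in the MYC pair -0.025 and 0.025 (0.05). STX2 was 1 of 2 genes 1.5-fold lower with CTNNB1 siRNA and the 1 gene 1.5-fold lower with MYU siRNA. STX11, of lymphocyte granules, and STX1A, of neurons, stayed within 0.08 of 0 in every pair.

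Of the 8 syntaxins of endosomes, Golgi and endoplasmic reticulum, 6 lay above 0 with CTNNB1 siRNA and 7 with MYC siRNA. Of all named genes 48.9% and 48% did. The medians of the 8 were 0.35 and 0.26. STX12, of recycling endosomes, stood at -0.56 and 0.56 in the control and knockdown arrays of the CTNNB1 pair, a 2.17-fold difference (1.12). In the MYC pair its values were -0.37 and 0.37 (0.74), and in the MYU pair -0.10 and 0.10 (0.20). STX7, of late endosomes, was 1.82-fold higher with CTNNB1 siRNA (0.87) and 1.69-fold higher with MYC siRNA (0.76), with 0.13 in the MYU pair.

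STX7, STX8 and VAMP8 form a late endosomal fusion complex with VTI1B. STX8 had 0.31, 0.23 and 0.03, and VTI1B -0.10, 0.35 and 0.12. In the MYC and MYU pairs the 4 genes of this complex lay above 0, against 48% and 48.7% of all named genes. In the CTNNB1 pair 3 of 4 did, against 48.9%. In the MYU pair only VAMP8 lay beyond the largest absolute value of the hair and skin genes (0.36). The complex was singled out after the values were seen. STX5 of the endoplasmic reticulum to Golgi step had 0.44, 0.29 and -0.01, STX18 of the endoplasmic reticulum 0.39, 0.18 and 0.06, and STX6 of the trans-Golgi network -0.26, 0.35 and 0.02. STX17, which brings autophagosomes to lysosomes, had -0.41, 0.05 and -0.32. STX10 stood at 0.08, -0.22 and 0.02.

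Syntaxin-binding proteins were split in the CTNNB1 pair, 3 above and 3 below 0. STXBP2, the Sec1/Munc18 protein that pairs with STX3 in epithelia, was 1.96-fold higher with CTNNB1 siRNA (0.97) and stood at 0.25 and 0.18 in the MYC and MYU pairs. STXBP5, or tomosyn, which blocks SNARE assembly, had 0.66, 0.15 and -0.16. Lower values came from STXBP4 (-0.58) and STXBP6 (-0.53), the latter also known as amisyn, both in the CTNNB1 pair. STXBP3, the partner of STX4, stayed between -0.13 and 0.04 over the 3 pairs. None of the 6 was 1.5-fold apart with MYC or MYU siRNA.

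SYTL genes encode C2-domain proteins that tie Rab27-bearing granules to the plasma membrane. With CTNNB1 siRNA 5 of 5 lay above 0, against 48.9% of all named genes. Their median was 0.87, the highest of any role group in that pair. SYTL2 stood at -0.66 in the control and 0.66 in the CTNNB1 siRNA array, a difference of 1.32, and it differed by -0.0007 with MYC siRNA and 0.05 with MYU siRNA. SYTL5 was 2.26-fold higher (1.18), with 0.09 and 0.03 in the other pairs. SYTL4 had 0.87, 0.32 and -0.25, SYTL1 0.33, 0.10 and 0.21, and SYTL3 0.12, 0.05 and -0.05. The group's medians with MYC and MYU siRNA were 0.09 and 0.03. Whether the pairs differ for these genes was not tested, since each has 1 array a condition.

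**Figure D3:**
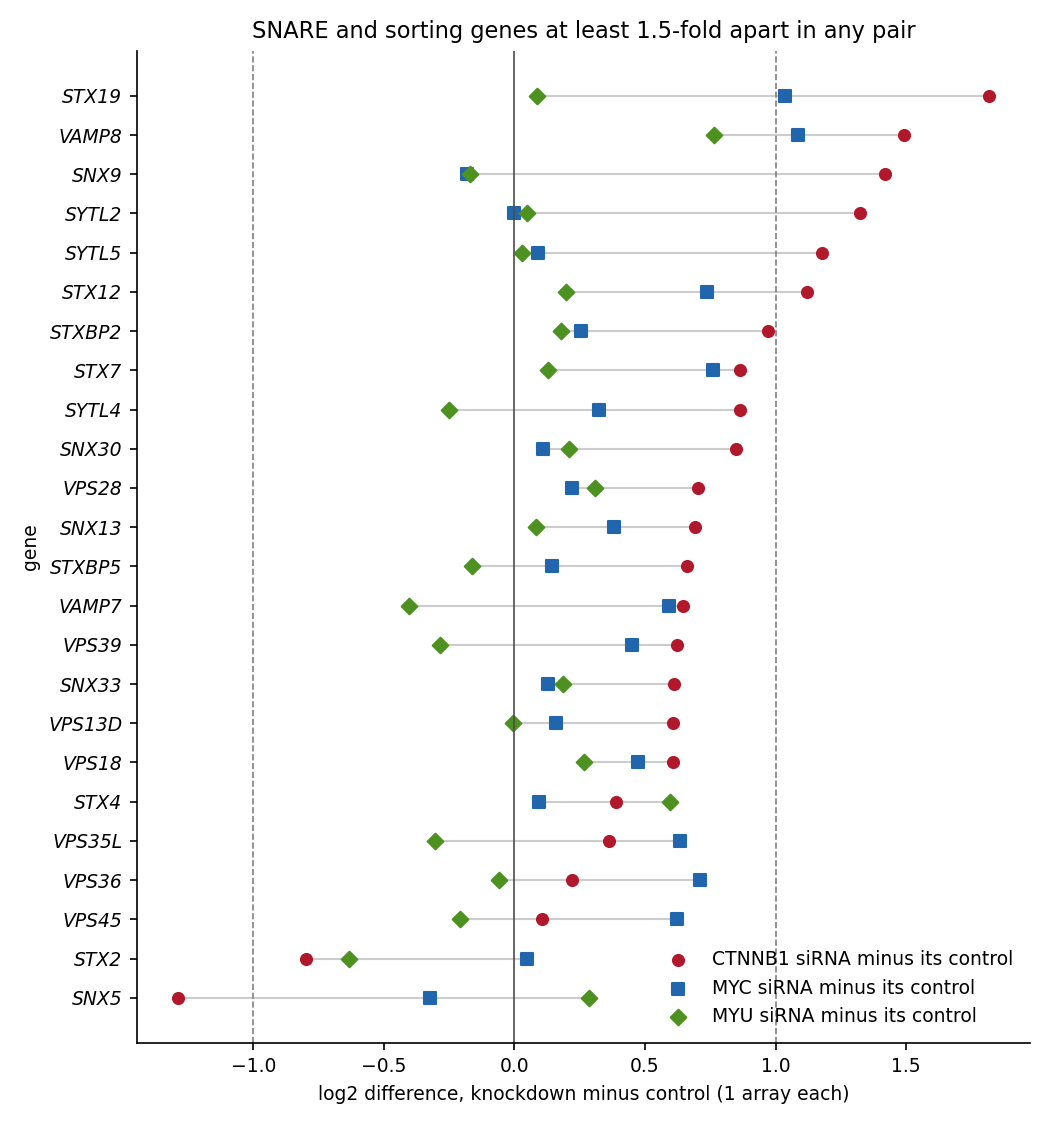
Log2 difference, knockdown minus control (horizontal axis), of the 24 SNARE and sorting genes at least 1.5-fold apart in any pair, with 1 point for each of the CTNNB1 (red circles), MYC (blue squares) and MYU (green diamonds) pairs and dashed lines at 2-fold. VAMP8 is the gene whose 3 points lie farthest right together, at 1.49, 1.08 and 0.77, while SYTL2, SYTL5 and SNX9 have 1 far point, in the CTNNB1 pair.

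Sorting nexins gave both a high and a low extreme in the CTNNB1 pair. SNX9, which bends membranes with dynamin during endocytosis, stood at -0.71 in the control and 0.71 in the CTNNB1 siRNA array, 2.67-fold apart (1.42). In the MYC and MYU pairs its values were 0.09 and -0.09 in control and knockdown arrays, with differences of -0.18 and -0.17. Its relatives differed in sign: SNX33 had 0.61, 0.13 and 0.18, and SNX18 had -0.55, -0.27 and 0.05.

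SNX5 was the gene of the set farthest below 0. It pairs with SNX1 or SNX2 in the coat that returns receptors from endosomes to the Golgi. Its values were 0.64 in the control and -0.64 in the CTNNB1 siRNA array, 2.45-fold lower in the latter (-1.29), with 2.34% of all named genes below it. In the MYC pair the difference was -0.32, and in the MYU pair 0.29. SNX6, its closest relative, had -0.16, -0.31 and -0.02. Of their partners, SNX1 had 0.12, 0.38 and 0.14, and SNX2 -0.08, -0.42 and -0.01. SNX5, SNX6 and SNX2 were thus below 0 in the CTNNB1 and MYC pairs while SNX1 was above. In the CTNNB1 pair only SNX5 lay beyond the largest absolute value of the hair and skin genes (0.65). In the MYC pair, where that value was 0.33, SNX5 and SNX6 lay within it and SNX1 and SNX2 somewhat beyond.

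Other sorting nexins were closer to 0. SNX30, of the SNX4 group, had 0.85, 0.11 and 0.21 and SNX13 0.69, 0.38 and 0.08. SNX4 itself had -0.03, 0.40 and 0.06. SNX8, also of the membrane-bending SNX-BAR kind, had 0.14, -0.33 and -0.03. SNX3, the retromer adaptor for the Wnt carrier, had 0.20, -0.21 and -0.04. In the MYU pair SNX27, a retromer adaptor with a PDZ domain, stood at -0.58, SNX12 at -0.50 and SNX29 at -0.45. The pseudogenes SNX29P1 and SNX29P2 had 0.00 and -0.10 in that pair, and since they resemble SNX29 their probe sets may share signal. Of the 26 sorting nexins, 18, 16 and 14 lay above 0 in the CTNNB1, MYC and MYU pairs. The shares were 69.2%, 61.5% and 53.8%, against 48.9%, 48% and 48.7% of all named genes.

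VPS genes were within 2-fold in every pair. Retromer, the core of endosome to Golgi return, had VPS35 at -0.34, -0.36 and -0.10, VPS26A at 0.01, 0.28 and -0.04, VPS26B at -0.19, 0.25 and 0.25, and VPS29 at -0.08, -0.08 and -0.32. Retriever, which recycles cargo to the surface, had VPS35L at 0.36, 0.63 and -0.30 and VPS26C at 0.23, -0.29 and -0.03.

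ESCRT genes of the VPS family centred near 0, with medians of 0.10, -0.04 and 0.01 over 7 genes. VPS28, of ESCRT-I, had 0.70, 0.22 and 0.31, and VPS36, of ESCRT-II, had 0.22, 0.71 and -0.06, or 1.64-fold higher with MYC siRNA. VPS25, which binds VPS36, had 0.10, 0.05 and 0.13. VPS37A stood at 0.00, -0.04 and -0.42. The 2 probe sets of VPS37B disagreed in sign in the MYU pair, at -0.13 and 0.28.

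Of 6 genes grouped as tethers of late endosomes and lysosomes, 5 lay above 0 with CTNNB1 siRNA (83.3%, against 48.9% of all named genes). The median was 0.31. The group counts VPS33B, a relative of the subunit VPS33A that is not itself a HOPS subunit. VPS39, which places HOPS on membranes, had 0.62, 0.45 and -0.29, and the core subunit VPS18 0.61, 0.47 and 0.26. VPS11 had 0.28, -0.02 and -0.41, VPS41 0.15, 0.11 and -0.08, VPS33A -0.06, 0.03 and 0.31, and VPS33B 0.35, 0.11 and -0.24. In the MYU pair 4 of the 6 lay below 0. The 6 genes therefore did not share a direction in that pair.

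The 5 subunits of the related GARP and EARP tethers, VPS50 to VPS54, had medians of 0.12, 0.03 and -0.04. Among them VPS54 had 0.12, 0.22 and -0.29 and VPS51 0.15, 0.26 and -0.06. VPS13 genes, which move lipids between membranes, were split in the CTNNB1 pair, with VPS13D at 0.61, VPS13B at 0.10, VPS13C at -0.31 and VPS13A at -0.32, and a median of -0.11. With MYC siRNA VPS13B stood at 0.51, VPS13C at 0.41, VPS13D at 0.16 and VPS13A at -0.23. With MYU siRNA 4 of 4 lay below 0, where 48.7% of all named genes lay above it, with a median of -0.11. VPS45, the Sec1/Munc18 protein of endosomes, was 1.54-fold higher with MYC siRNA (0.62). Its other values were 0.11 and -0.21. VPS72 had -0.12, -0.08 and 0.04. RAB6D stayed within 0.06 of 0, and of the 7 symbols that do not encode protein VPS13A-AS1 was farthest out, at -0.32 with MYC siRNA, followed by STX18-AS1, at -0.17 in that pair.

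**Figure D4:**
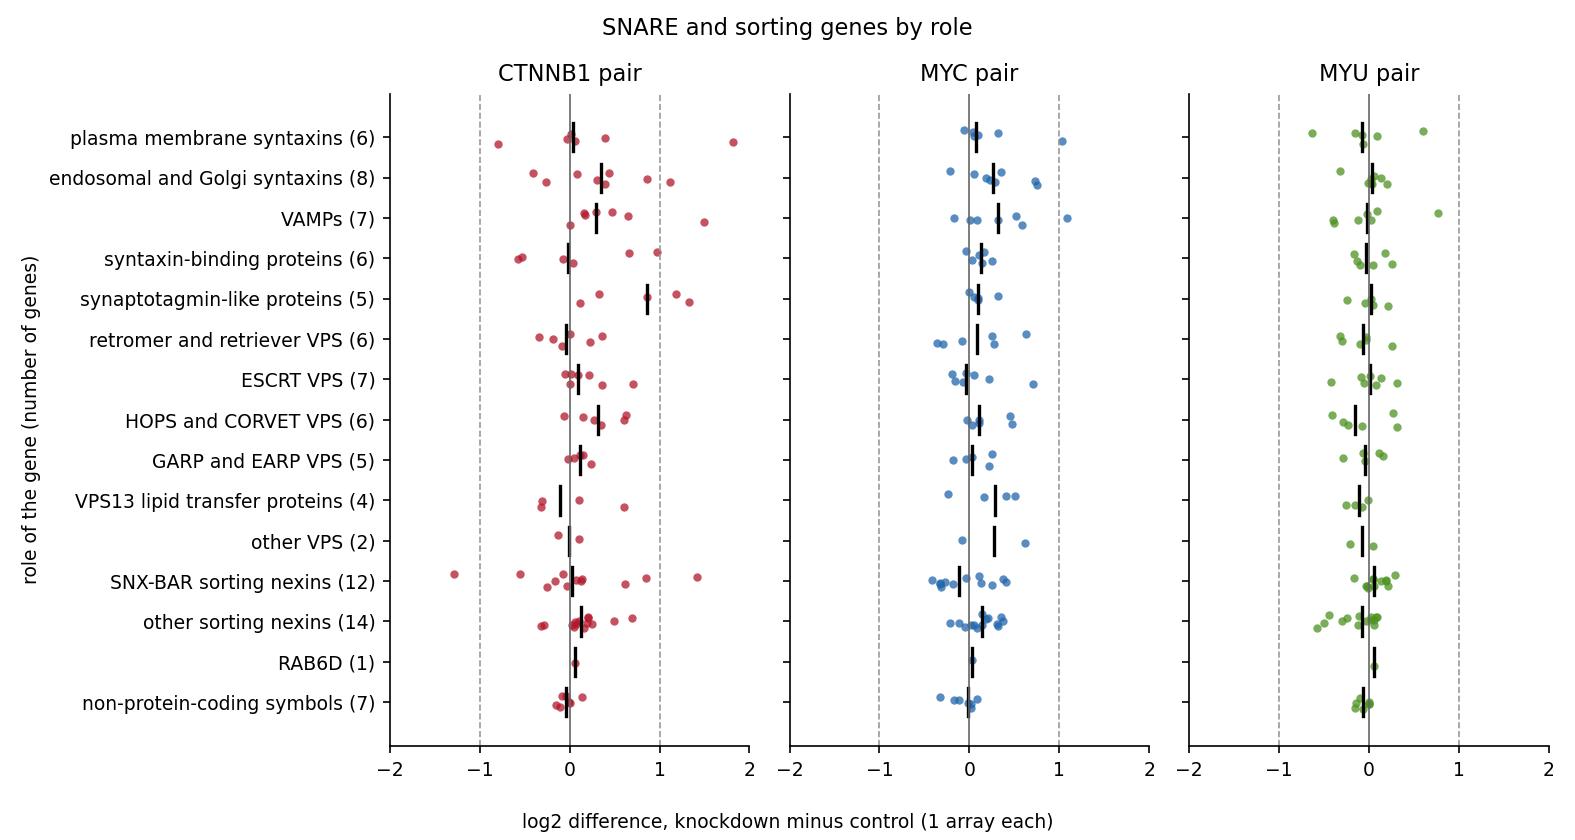
Log2 difference, knockdown minus control (horizontal axis), of each of the 96 genes by role (vertical axis), 1 panel a pair. Points are genes, with vertical scatter for legibility, and black bars are group medians. The SYTL median of 0.87 stands apart in the CTNNB1 panel, and VAMPs and endosomal syntaxins lie to the right in the CTNNB1 and MYC panels. In the MYU panel no group median is farther from 0 than -0.16. That is the median of the group labelled HOPS and CORVET, which also counts VPS33B.

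Gene length moved with the values in the MYU pair. Across 11910 protein-coding genes Spearman's rho between genomic length and difference was -0.17 there, against -0.01 with CTNNB1 and 0.02 with MYC siRNA, as a description across genes that share the same arrays. After a running median by length was taken out, VAMP8 had 0.74, STX2 -0.62, SNX27 -0.54 and STX4 0.57 in the MYU pair. STX4 then fell short of 1.5-fold. The median of the set in the MYU pair was then -0.01, against -0.02 before. VAMP7 and VPS37A, at -0.40 and -0.42 before, then each had -0.39. The shares of the set at moderate negative values were not computed again without the length trend.

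Other genes of vesicle transport, from lists of Rab regulators, effectors, coats and tethers, numbered 206. With CTNNB1 siRNA 9 were 2-fold higher (4.37%, against 2.8% of all named genes) and 3 lower (1.46%, against 4.14%). At 1.5-fold 31 were higher (15%, against 6.44%) and 7 lower (3.4%, against 9.8%), with a median of 0.11. With MYC siRNA 6 were 1.5-fold higher (2.91%, against 2.15%) and 5 lower (2.43%, against 3.63%), shares near the background, with a median of 0.06. With MYU siRNA 2 were higher (0.971%, against 0.668%) and 1 lower (0.485%, against 1.21%), with a median of -0.02. Of the 206, 127 lay above 0 with CTNNB1 siRNA (61.7%, against 48.9% of all named genes). With MYC siRNA 130 did (63.1%, against 48%), and with MYU siRNA 94 (45.6%, against 48.7%). The SNARE and sorting genes and these lists thus both leaned to values above 0 in the CTNNB1 and MYC pairs.

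The list of effectors, the proteins that active Rabs recruit, holds 36 genes and counts the vesicle-priming genes UNC13A and UNC13B with them. Of the 36, 4 were 2-fold higher with CTNNB1 siRNA and 0 were lower, around a median of 0.03. Of all named genes 2.8% were 2-fold higher and 4.14% lower. OPTN, which links vesicles to myosin and autophagy, stood at 2.04, MLPH, the Rab27 and myosin linker of granules, at 1.47, and UNC13B, which primes vesicles for fusion, at 1.18. MYO5B, the motor of apical recycling endosomes, followed at 1.02. Its value was -0.02 with MYC siRNA, where OPTN had 0.55, UNC13B 0.53 and MLPH 0.07. RAB11FIP2, an adaptor between Rab11 and MYO5B, was low in both pairs, at -0.93 and -0.89. With MYU siRNA RAB11FIP3 stood at 0.73, the motor gene MYO5C at -0.49 and HPS5 at -0.44.

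Of 36 exchange factors, which switch Rabs on, 27 lay above 0 with CTNNB1 siRNA (75%, against 48.9% of all named genes). At 1.5-fold 7 were higher and 1 was lower, against 6.44% and 9.8%. The 1 that was 2-fold higher, a share near the 2.8% of all named genes, was RIN2 (1.47), an activator of Rab5. RGP1 (0.94) and SBF1 (0.87) followed. In the MYC pair DENND1C (-0.76) and GAPVD1 (-0.69) were 1.5-fold lower, against 3.63% of all named genes, and RIN2 had 0.55. The values farthest from 0 with MYU siRNA were those of RABGEF1 (-0.36), RAB3GAP2 (0.34) and ANKRD27 (-0.31). VPS9D1, which shares the Rab5 exchange domain and lies beside MYU, had 0.09, 0.24 and 0.08.

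Of 13 genes listed for the Rab-inactivating TBC domain, TBC1D31, better known as a centriolar protein, had -1.10 with CTNNB1 siRNA, EVI5L 0.56 and TBCK -0.43. With MYC siRNA RABGAP1 had 0.60, USP6NL -0.42 and SGSM2 0.37, and with MYU siRNA RABGAP1 had 0.58, TBCK -0.45 and RABGAP1L -0.39. In that pair 10 of the 13 lay below 0 and 3 above (23.1%), against 48.7% of all named genes above. RABAC1, which holds prenylated Rabs at the Golgi, had 0.98, 0.97 and 0.32, while GDI2, which extracts Rabs from membranes, had -0.33, 0.13 and 0.06, and CHML -0.31, 0.10 and -0.47.

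Other SNAREs and their recycling factors had 7 of 18 above 0 with CTNNB1 siRNA (38.9%, against 48.9% of all named genes) and a median of -0.07. SCFD2 (-1.23) and the syntaxin-binding taxilin gene TXLNG (-1.17) were 2-fold lower, against 4.14% of all named genes, and SEC22C had -0.55. With MYC siRNA TXLNG had -0.82, NSF, the ATPase that takes used SNARE complexes apart, 0.74, and SEC22B 0.64. NSF and SEC22B had 0.50 and 0.47 in the CTNNB1 pair. With MYU siRNA SCFD2 had 0.68, TXLNA -0.35 and SEC22B 0.26.

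Of 16 further ESCRT genes 14 lay above 0 with CTNNB1 siRNA (87.5%, against 48.9% of all named genes), with a median of 0.35. At 2-fold 3 were higher, against 2.8% of all named genes. They were CHMP5 (1.45) and CHMP2B (1.06), both of the filament-forming ESCRT-III, and STAM2 (1.08), of the cargo-binding ESCRT-0. In the MYC pair these had 0.09, -0.27 and 0.08, and the values farthest from 0 there were those of CHMP4C (0.54), CHMP2A (0.48) and CHMP1B (0.47). With MYU siRNA CHMP2A had 0.50, CHMP4C 0.40 and IST1 0.36.

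Of 17 retromer partners COMMD7 had 0.89 and 0.55 in the CTNNB1 and MYC pairs. COMMD3 had -0.45 and COMMD4 -0.40 with CTNNB1 siRNA, where the list median was -0.04. With MYC siRNA COMMD4 had -0.25 and WASHC4 0.24. WASHC1 (0.31), WASHC3 (-0.29) and WASHC5 (-0.29), of the WASH complex that builds actin on endosomes, were farthest from 0 with MYU siRNA.

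Of 19 synaptotagmin-type genes, ESYT2, a tether of endoplasmic reticulum to plasma membrane, had 1.21, ESYT1 -0.98 and SYT5 0.61 with CTNNB1 siRNA. With MYC siRNA ESYT2 had 0.32, ESYT3 -0.25 and SYT15 0.17, and with MYU siRNA ESYT3 had 0.35, SYT8 0.16 and SYT1 -0.13.

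Among 10 exocyst genes, whose products tether vesicles to the plasma membrane, EXOC1 (0.97) and EXOC6B (0.94) were 1.5-fold higher with CTNNB1 siRNA. Of all named genes 6.44% were. EXOC3L4 had 0.20. With MYC siRNA EXOC1, EXOC6B and EXOC2 had 0.52, 0.42 and 0.31, and with MYU siRNA EXOC6 had -0.29, EXOC6B -0.27 and EXOC3L1 -0.16. The list of 24 Golgi tethers holds COG and TRAPP subunits and the golgin GOLGA2. GOLGA2 (0.99), COG6 (0.79) and TRAPPC6B (0.60) led it with CTNNB1 siRNA. TRAPPC1 (0.61), COG6 (0.59) and TRAPPC2L (-0.39) were farthest from 0 with MYC siRNA, and TRAPPC10 (-0.58), TRAPPC5 (0.42) and COG6 (0.35) with MYU siRNA.

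Among 9 genes of the COPI and COPII coats, SEC23A had 0.72, ARCN1 0.41 and SAR1B 0.33 with CTNNB1 siRNA. With MYC siRNA SAR1B had -0.59, ARCN1 0.48 and PREB -0.40. With MYU siRNA ARCN1, a subunit of COPI, had -0.76, the value farthest from 0 of all 206 genes in that pair, SAR1B -0.34 and PREB 0.26. Of 5 clathrin-associated genes PICALM had 0.79, EPN1 0.69 and EPN3 0.15 in the CTNNB1 pair. With MYC siRNA PICALM had 0.41, EPN1 0.19 and EPN2 -0.18, and with MYU siRNA CLINT1 had -0.24, EPN3 0.15 and EPN1 0.05.

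Markers of cell types were set beside these values. Of 8 colon epithelial genes 7 lay above 0 with CTNNB1 siRNA, against 48.9% of all named genes. At 2-fold 3 were higher, KRT19 (2.09), VIL1 (1.06) and GPA33 (1.02), against 2.8% of all named genes. The 8 genes ranged from -0.42 to 2.09. With MYC siRNA their median was -0.03. With MYU siRNA it was 0.07, with GPA33 1.74-fold lower (-0.80). Of 3 fibroblast markers LUM was at 2.78 with CTNNB1 siRNA and the others within 0.04 of 0. Of 4 leukocyte markers CD68, also a lysosomal membrane protein, was at 2.65 and LYZ at -0.23 in that pair. With MYU siRNA 4 of 4 leukocyte markers lay above 0, against 48.7% of all named genes. Their median was 0.32, with LYZ at 0.74 and CD68 at 0.48. The part of these genes' state in the values above was not tested.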

How the data were processed

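RNA of 6 LS180 samples was biotin-labelled for Affymetrix arrays, per the labels. The deposited table holds log2 values, centred by the authors on each knockdown and control: their sum is 0 within 1e-06 for every probe set. The centring was read from the values; base 2 is assumed, and every fold rests on it. How probe signals were corrected, normalized and summarised is not stated in the sources used here.

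Of 44629 probe sets, 15835 carry 1 gene symbol in the platform's annotation. Probe sets of a gene were averaged, giving 14812 genes. All 96 members matched RefSeq (GRCh38.p14) by identifier, and 5 had 2 probe sets. Knockdown minus control was computed per gene and counted at 2-fold and 1.5-fold. No test was possible with 1 array a condition. The members and lists were chosen with earlier results of these data known; the hair and skin yardstick and the protein-coding background were added after the data were seen. Role groups come from a hand-written list.

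Text names the targeted genes, members at least 2-fold apart, the 5 highest and 5 lowest members a pair, 2 members a role group, and the 3 genes a list and pair with the largest absolute difference; other members and the marker genes are named to complete a complex or family and were chosen after their values were seen. RAB27A and RAB27B were on the list of names but were not analysed here.

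Alternatives were the 1.5-fold threshold, centring on each pair's median, the probe set nearest to 0, protein-coding members, the central 95% of all genes as the call rule, and a running median over 501 genes ordered by length. Calculations were tested on simulated data. Python 3.11.15, numpy 2.4.6, pandas 2.3.3 and matplotlib 3.10.9 were used.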

Additional observations from a re-analysis of the deposited data

How the results depend on the processing

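Counts were compared with the 2-fold counts of the report, 6 higher and 1 lower with CTNNB1 siRNA, 2 and 0 with MYC siRNA and 0 and 0 with MYU siRNA. At 1.5-fold they were 18 and 2, 8 and 0, and 2 and 1. Calling genes outside the central 95% of all genes of the same pair gave 6 higher and 1 lower with CTNNB1 siRNA. It gave 8 and 0 with MYC siRNA, and 2 and 3 with MYU siRNA. The lower fold or narrower range sets the counts that are larger than at 2-fold. By construction this rule leaves 95% of all named genes inside the range. The counts of 2 and 3 of 96 with MYU siRNA are near the share that it leaves outside. Centring on the pair's median, the probe set nearest to 0 and protein-coding members left the 9 counts and medians they were run on within 1.5 times, or within the median standard deviation between probe sets of a gene (0.10, 0.08 and 0.06), and so did removing the length trend for the 3 medians. Among single gene values, 5 moved by more than that with the probe set nearest to 0 (VPS37B in the MYC and MYU pairs, and STX18-AS1, VPS51 and VPS52 in the MYC pair). No value of at least 1.5-fold changed sign. No paired analysis was possible because each pair has 1 array a condition and each value is already a difference within a pair; arrays could not be left out for the same reason. Low-level genes could not be filtered without levels, and well expressed genes may differ more often than the background of all genes.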
